A study of Homo sapiens with 6 samples.

Results

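The genes described here are 10 components of the Notch pathway: the receptors NOTCH1, NOTCH2 and NOTCH3, the ligands DLL1, DLL3 and JAG1, and the target and target-family genes HES1, HES5, HES6 and HEY1. They were listed by symbol, and all 10 were found among the 60664 genes of the count tables. The cells were D283 Med, an established human medulloblastoma line of the Group 3 subtype with an amplified MYC gene. All 6 libraries came from cells transfected with LNA GapmeRs, antisense oligonucleotides that lead RNase H to cut a transcript. The GapmeR was scrambled (SCR) in 3 control libraries and aimed at lncMB3, a long non-coding RNA, in 3 knockdown libraries (KD). A single line was used, and cells without a GapmeR were not analysed here, so loss of lncMB3 cannot be told apart from other effects of that oligonucleotide. The level of lncMB3 was not analysed here, and directions rest on the labels. Whether the 3 libraries of each group are separate cultures is not stated, and the spread behind each p-value may be technical.

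Notch signalling passes between touching cells. A Delta or Jagged ligand on the surface of a cell binds a Notch receptor on its neighbour, ADAM proteases and then gamma-secretase cut the receptor, and the freed intracellular part joins the DNA-binding protein RBPJ and a Mastermind coactivator to switch on HES and HEY repressors. In the developing brain, including the cerebellum, these repressors hold back proneural factors and keep progenitors undifferentiated.

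In the knockdown libraries 3 of the 10 genes fell and 0 rose. HES6, a HES family member known to oppose HES1 and to accompany neuronal differentiation, fell 1.93-fold, NOTCH2 1.34-fold and NOTCH3 1.253-fold (edgeR's quasi-likelihood test, Benjamini-Hochberg adjusted p under 0.05). The canonical targets HES1 and HEY1 and the receptor NOTCH1 did not pass the test. DLL1 and HES5 were at or near 0 counts and were not tested. Of all 14673 genes tested, 31.7% passed, 15.9% higher and 15.9% lower, so 3 calls among 8 tested genes is a share near the background. With edgeR 0 of the 8 rose at an unadjusted p under 0.05, though HES1 lay just above that bound (unadjusted p = 0.0519). DESeq2 and limma-voom also called 0 higher. Groups did not overlap in 3 of the 8 (HES6 and NOTCH2 lower, HES1 higher), as in 46% of all tested genes, where 23.1% had all knockdown libraries below and 22.9% above. The median log2 change of the 8 was -0.15, against 0.00 over all tested genes.

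Total counts per library ran from 7765826 (knockdown library 1) to 20035834. The label was checked against markers. MYC was at 1103 to 1278 CPM (counts scaled to the library total) in the 6 libraries, OTX2, a Group 3 transcription factor, at 722.7 to 922.5 CPM, and IMPG2, a photoreceptor matrix gene, at 197.5 to 343 CPM. Of the Group 3 and photoreceptor list, 8 of 8 genes were tested, 5 fell and 1 rose, beside 15.9% lower and 15.9% higher over all tested genes. Of these falls only that of IMPG2 was called in all 16 alternatives described below, as was the rise. The call of OTX2 was lost without 4 of the 6 single libraries. Neural progenitor markers were mixed. VIM and SOX9 were present, whereas SOX2 and FABP7 had 0 counts in every library, and of 5 tested markers NES rose 1.21-fold and VIM fell 1.19-fold. Of 9 glial markers MBP and MOG had 0 counts in every library and GFAP at most 3. Of 4 tested glial markers PDGFRA fell (1.77-fold). The endothelial gene CDH5 had 0 counts, and PTPRC, the pan-leukocyte marker, at most 1. In that list of 14 endothelial, mural, immune, mesenchymal and epithelial markers 6 were tested, and COL1A1 fell 1.28-fold and DCN 2.25-fold. DCN was low, at 3 to 26 counts per library. The calls of NES, VIM, PDGFRA, COL1A1 and DCN were each lost without 3 or 4 of the 6 single libraries, control 2 among them. With DESeq2 the calls of PDGFRA (adjusted p = 0.102), COL1A1 (0.0666) and DCN (0.151) were lost, and with a transcript length correction that of COL1A1 (0.0692). The summed level of all 4 kinds of marker was lower in every knockdown library than in every control. It was 2860 to 3099 CPM in controls and 2706 to 2790 in the knockdown for the Group 3 and photoreceptor list, and 1108 to 1196 and 938 to 1038 CPM for progenitor markers. It was 7.08 to 8.16 and 5.46 to 5.73 CPM for the 8 glial markers reported here, and 45.7 to 48.3 and 38.0 to 41.2 CPM for the other cell types. VIM alone was at 701.2 to 940.1 CPM, most of the progenitor sum. Gene by gene, all knockdown libraries lay below all controls in 4 Group 3 and photoreceptor genes and above in 2. These counts were 1 and 1 for tested progenitor markers, 3 and 0 for tested glial markers and 4 and 0 for the other tested markers. Of all tested genes 23.1% lay below and 22.9% above. The part of these markers in the results below was not tested. In bulk RNA, fewer cells of a type and less RNA per cell cannot be told apart.

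The genes spanned a wide range of levels. Between genes, levels are given as CPM per kilobase of exon. In the controls HES6 was highest at 136.8 ± 21.0 CPM per kilobase (SD, n = 3), above 98.6% of the 16215 protein-coding genes with counts. NOTCH2 followed at 16.95 ± 2.33, NOTCH3 at 14.6 ± 2.21 and HEY1 at 14.2 ± 0.821 CPM per kilobase. NOTCH3 overlapped with each of the other two in the controls, while NOTCH2 lay above HEY1 in all 3. Below them stood NOTCH1 at 5.29 ± 0.729, HES1 at 2.95 ± 0.299, DLL3 at 1.89 ± 0.352 and JAG1 at 0.590 ± 0.0689 CPM per kilobase, each apart from its neighbours in all 3 controls. DLL1 and HES5 were at the bottom. In the knockdown libraries HES6 was again highest, at 70.9 ± 15.4 CPM per kilobase. HEY1, NOTCH2 and NOTCH3 followed there at 14.2 ± 0.668, 12.7 ± 2.06 and 11.7 ± 1.27 CPM per kilobase. NOTCH2 overlapped there with each of the other two, while HEY1 lay above NOTCH3 in all 3. The remaining order was that of the controls. Exon lengths are those of all annotated transcripts joined. With the longest transcript in their place HEY1 stood above NOTCH3 in the controls.

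**Figure D1:**
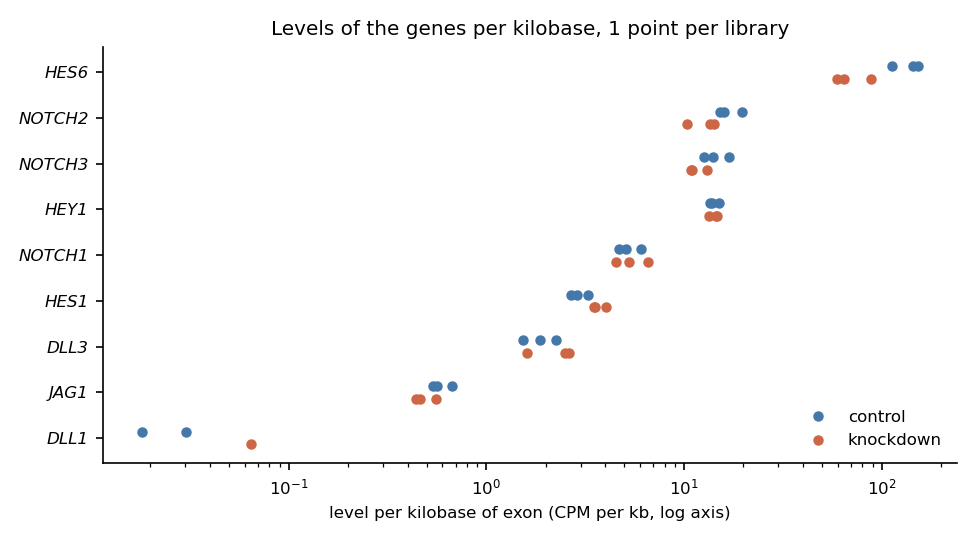
Level of each gene in CPM per kilobase of exon (log axis), 1 point per library, controls in blue and knockdown libraries in orange, ordered by the control mean. HES6 lies above all others and DLL1 below; HES5, at 0 counts in all 6 libraries, and libraries with 0 counts of DLL1 cannot be drawn on a log axis.

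Receptors were the first role compared. They are single-pass proteins that carry the signal into the nucleus, and all 3 were well expressed. NOTCH2 (chromosome 1, 119911553 to 120069626, minus strand, GRCh38) was at 268.5, 256.5 and 329.5 CPM in SCR 1 to 3 and 238.9, 174 and 227.2 CPM in KD 1 to 3. Every knockdown library lay below every control. The log2 change was -0.42 ± 0.12 (SE, adjusted p = 0.0168). This call was lost without control 3, the highest control (log2 change -0.30, adjusted p = 0.0875), and without knockdown library 2, the lowest library (-0.29, adjusted p = 0.0539). NOTCH2 shares sequence with its partial copies NOTCH2NLA, NOTCH2NLB, NOTCH2NLC and NOTCH2NLR, so its count is uncertain by what RSEM assigned to them. NOTCH2NLC, the most abundant copy, had 81 to 280 counts per library, against 1837 to 5896 for NOTCH2.

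NOTCH3 (chromosome 19, 15159038 to 15200981, minus strand) was at 118.8, 132.1 and 159.4 CPM under SCR and 123.4, 103.1 and 102.4 CPM under KD. Knockdown library 1 lay above control 1, so the groups overlapped. The fall of 0.32 ± 0.11 on the log2 scale (adjusted p = 0.0367) was the least secure of the 3 calls. It was lost without control 2 (log2 change -0.35, adjusted p = 0.0738), control 3 (-0.20, adjusted p = 0.196), knockdown library 2 (-0.28, adjusted p = 0.0974) or knockdown library 3 (-0.29, adjusted p = 0.130), and after a correction for transcript length (-0.23, adjusted p = 0.0765) or GC content (-0.26, adjusted p = 0.0649).

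NOTCH1 (chromosome 9, 136494433 to 136545786, minus strand) was at 48.5, 52.9 and 63.3 CPM under SCR and 68.0, 46.9 and 54.7 CPM under KD. Both the highest and the lowest of the 6 values came from knockdown libraries, and the log2 change was 0.03 ± 0.13 (adjusted p = 0.895). Its sign turned with upper-quartile scaling (-0.03) and without control 1 (-0.05) or knockdown library 1 (-0.11).

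The receptors have long transcripts, and libraries differed in the levels of such transcripts, for a cause that was not tested. The longest annotated transcripts are 9306 bases for NOTCH1, 11389 for NOTCH2 and 8666 for NOTCH3. Across the 1224 tested genes with a transcript of 8 kb or more, the median deviation from a gene's mean log2 CPM was 0.00, 0.05 and 0.11 in SCR 1 to 3 and 0.01, -0.19 and 0.06 in KD 1 to 3. Control 3 was thus high and knockdown library 2 low for long transcripts, as they were for NOTCH2. In that class 24.6% of genes were called lower and 9.48% higher, with a median log2 change of -0.09. After a correction for transcript length NOTCH2 was still called (log2 change -0.32, adjusted p = 0.0117), also after one for gene span (-0.29, adjusted p = 0.0451). Ratios within a library compare receptors with each other without any scaling. Per kilobase, NOTCH2 exceeded NOTCH1 3.42-, 3.00- and 3.22-fold under SCR and 2.17-, 2.29- and 2.57-fold under KD. NOTCH3 exceeded NOTCH1 2.704-, 2.76- and 2.78-fold under SCR and 2.004-, 2.43- and 2.07-fold under KD. Neither set of ratios overlapped between the groups. These ratios were chosen after the values were seen, and 3 libraries against 3 cannot give an exact permutation p under 0.1, so they carry no test.

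**Figure D2:**
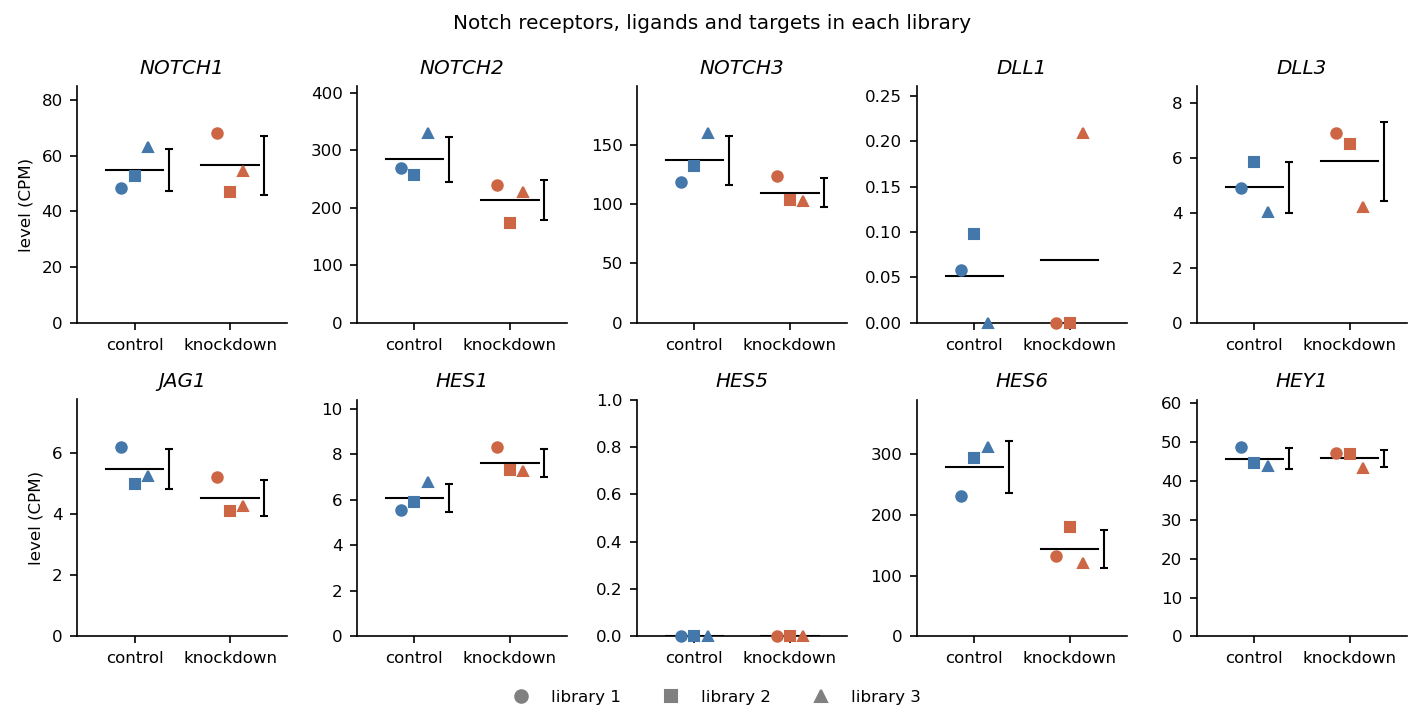
Level of each of the 10 genes in CPM in every library, with a linear axis from 0 in each panel; symbols mark the library number, the horizontal line is the group mean and the bar its SD (n = 3; no bar for DLL1 and HES5). For HES6 and NOTCH2 all knockdown libraries lie below all controls, for HES1 above, and in the other genes the groups overlap.

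Ligands were scarce. DLL3, a divergent Delta protein that acts mainly inside the cell that makes it and is not known to activate Notch on neighbours, was at 4.92, 5.87 and 4.02 CPM under SCR and 6.89, 6.52 and 4.22 CPM under KD (chromosome 19, 39498895 to 39508481). The groups overlapped, with knockdown library 3 within the range of the controls (log2 change 0.21 ± 0.21, adjusted p = 0.458). JAG1, an activating Jagged ligand (chromosome 20, 10637684 to 10673999, minus strand), was at 6.21, 4.99 and 5.25 CPM under SCR and 5.20, 4.12 and 4.27 CPM under KD. Knockdown library 1 lay above control 2, and the log2 change of -0.30 ± 0.17 did not pass (adjusted p = 0.191). DLL1, the main Delta ligand of neural progenitors (chromosome 6, 170282206 to 170306565, minus strand), had 1, 2 and 0 counts under SCR and 0, 0 and 4 under KD. It failed the low-count filter, and at this depth no difference in DLL1 was detectable. A count of 0 allows up to 3 counts, which is 0.168 CPM in control 3 and 0.390 CPM in knockdown library 1, for counting error only.

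The other Jagged ligand, JAG2, is no member of the 10 but exceeded both measured ligands per kilobase. Its level was 62.6, 57.8 and 63.5 CPM under SCR and 80.0, 70.7 and 69.0 CPM under KD, with no overlap. It rose 1.19-fold (adjusted p = 0.0412), a call lost in 7 of 16 alternatives, among them the settings without control 2 (log2 change 0.21, adjusted p = 0.190), control 3 (0.28, adjusted p = 0.0678), knockdown library 1 (0.19, adjusted p = 0.178) and knockdown library 3 (0.28, adjusted p = 0.057), and with upper-quartile scaling (0.19, adjusted p = 0.107). Per kilobase JAG2 exceeded JAG1 14.7-, 16.8- and 17.6-fold under SCR and 22.35-, 24.95- and 23.45-fold under KD. Fitted changes of the Jagged genes thus had opposite signs, though JAG1's own did not pass the test.

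Target genes held both the largest and the smallest change of the 8 tested. The sequences just before their RefSeq start sites are shown because HES1 and HES5 are the textbook Notch targets and HES6, the gene that moved most, is not switched on by Notch in the same way. Capitals mark TGGGAA or its reverse complement TTCCCA, the core that RBPJ binds, and CAGCTG, an E-box that proneural factors bind. Bases that GENCODE places in an exon were left out. The windows are from RefSeq (GRCh38.p14): chr3:194135898-194136144, plus strand, for HES1; chr1:2530264-2530513, minus strand, for HES5; and chr2:238240125-238240288, minus strand, for HES6.
HES1: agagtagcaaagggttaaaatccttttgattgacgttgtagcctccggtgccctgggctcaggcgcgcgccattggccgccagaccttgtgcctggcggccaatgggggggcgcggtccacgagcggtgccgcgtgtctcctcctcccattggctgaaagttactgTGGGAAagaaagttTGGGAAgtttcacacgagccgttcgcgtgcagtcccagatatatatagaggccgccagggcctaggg
HES5: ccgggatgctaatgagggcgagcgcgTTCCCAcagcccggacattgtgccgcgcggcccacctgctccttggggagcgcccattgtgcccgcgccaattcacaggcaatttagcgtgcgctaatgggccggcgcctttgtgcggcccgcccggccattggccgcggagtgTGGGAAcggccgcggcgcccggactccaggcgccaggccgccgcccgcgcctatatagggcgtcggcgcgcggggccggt
HES6: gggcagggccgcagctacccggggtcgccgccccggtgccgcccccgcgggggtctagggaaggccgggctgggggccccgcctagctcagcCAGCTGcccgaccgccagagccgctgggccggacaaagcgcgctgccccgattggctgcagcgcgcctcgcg
Both strands of the 250 bases before each start were searched. HES1 held 2 matches to TGGGAA, at -84 and -70 counted from the start, both on the gene's strand. HES5 held 2, at -80 on the gene's strand and at -224 on the other. HES6 held 0, and it held 1 CAGCTG, at -158. Of all 35116 RefSeq windows of this length, 20.8% held TGGGAA and 14% CAGCTG. HES6 has annotated transcripts that start further upstream, so this window is not its only start region. Promoter sequences were not matched for DLL1 and DLL3, and the match of letters says nothing of binding.

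HES6 (chromosome 2, 238238267 to 238240662, minus strand) was at 230.2, 293.6 and 311.8 CPM in SCR 1 to 3 and 131.6, 180.2 and 121.3 CPM in KD 1 to 3. All knockdown libraries lay below all controls, and control 1 was the control nearest to them. The log2 change was -0.95 ± 0.14 (adjusted p = 0.000338), and 3.55% of tested genes had a lower one. The call was kept in all 16 alternatives, with log2 changes from -1.14 without knockdown library 2 to -0.84 without knockdown library 3. HES6 has a GC content of 68.4%, and the 474 tested genes at 65% or more had a median log2 change of -0.06. After a correction for GC content HES6 was at -0.89 (adjusted p = 0.000189). A transcript on the other strand within its span, ENSG00000225057, shares no exon base with it and had 1 to 15 counts per library, against 1012 to 6004 for HES6.

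HES1, the main repressor switched on by Notch in neural progenitors (chromosome 3, 194136145 to 194138732), was at 5.56, 5.92 and 6.76 CPM under SCR and 8.33, 7.30 and 7.25 CPM under KD. Its knockdown libraries all lay above its controls, as in 22.9% of tested genes, but the log2 change of 0.31 ± 0.15 did not pass the test (adjusted p = 0.121). The adjusted p was 0.0718 (with a GC correction) to 0.277 over all 16 alternatives. HES6 thus fell where the fitted change of HES1 was upward. Per kilobase HES6 exceeded HES1 41.9-, 50.2- and 46.7-fold under SCR and 16.0-, 25.0- and 16.95-fold under KD, again chosen after the values were seen and without a test.

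HEY1, a Hairy-related repressor downstream of Notch (chromosome 8, 79764010 to 79767863, minus strand), was at 48.8, 44.7 and 43.9 CPM under SCR and 47.4, 46.95 and 43.4 CPM under KD. The groups covered almost the same range, and the log2 change was 0.00 ± 0.09 (adjusted p = 0.995). HES5 (chromosome 1, 2528745 to 2530245, minus strand), a Notch target of neural progenitors, had 0 counts in all 6 libraries, which together allow a level of up to 0.0296 CPM.

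The genes whose pattern was most like that of HES6 over the 6 libraries were TMEM80, TULP1 and ACOT2 (Pearson r of log2 CPM 0.9980, 0.9979 and 0.9975). TULP1, a photoreceptor protein, was at 17.4, 22.6 and 26.4 CPM under SCR and 9.495, 13.5 and 8.65 CPM under KD, and its log2 change was -1.05. ACOT2, a mitochondrial acyl-CoA thioesterase, changed by -0.38 and TMEM80, a transmembrane protein, by -0.41. These values describe 6 libraries that share a group difference, and 1136 of 10984 genes considered had an r over 0.9 with HES6.

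Other genes of the pathway moved in both directions. They were taken from 8 lists by role, with 69 genes of which 56 passed the low-count filter. Of the 56, 7 rose, 12 fell and 37 did not pass, with a median log2 change of -0.03, a share near the background of 31.7%. Each role holds few genes, and its counts below stand beside 15.9% higher and 15.9% lower over all tested genes. Of the 19 called genes 6 were called in all 16 alternatives: CNTN1, NEURL1B, EPN2 and MAML3, which fell, and HDAC1 and NUMBL, which rose.

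**Figure D3:**
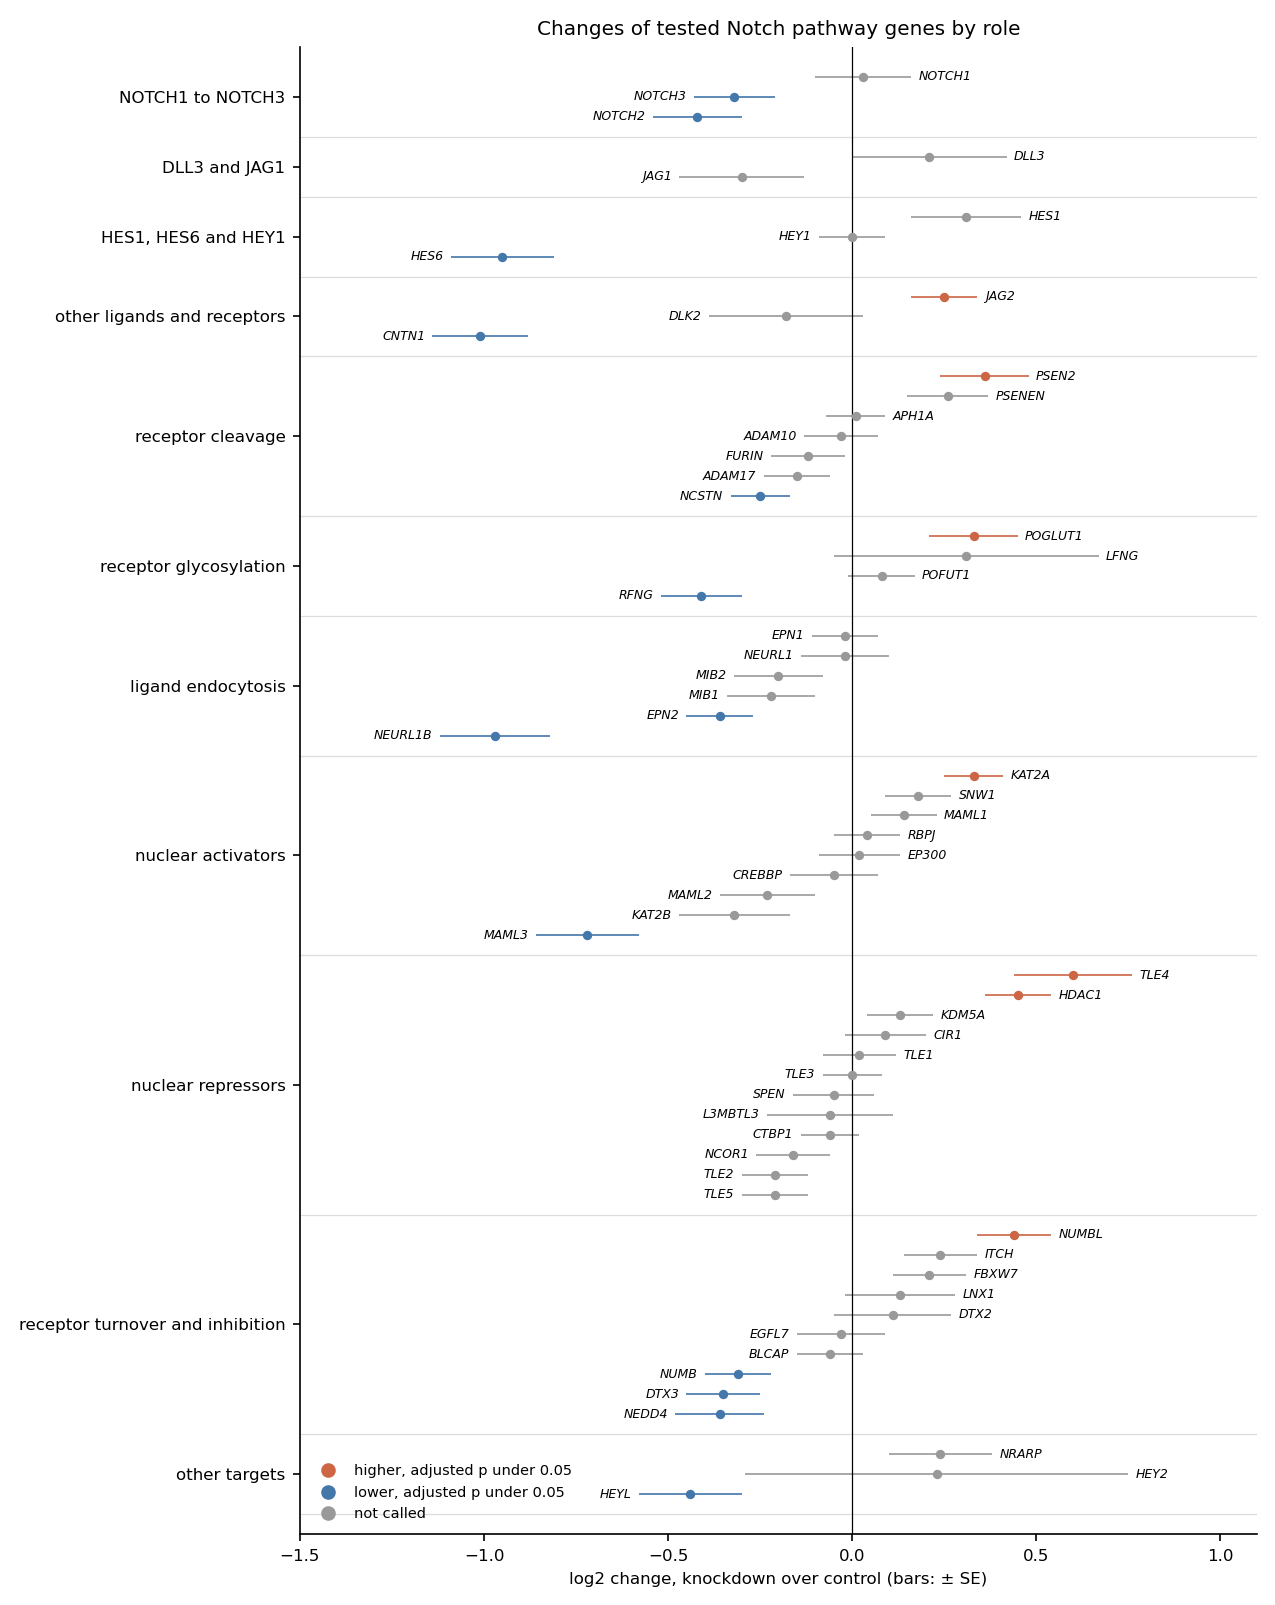
Log2 change (knockdown over control) with its SE for the tested genes of the pathway reported here, by role, coloured by call at an adjusted p of 0.05. Calls fall on both sides of 0 in several roles, and the largest falls are those of CNTN1, NEURL1B and HES6.

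Genes that act on the cell surface came first. Of 3 tested other ligands and receptors 1 rose, JAG2, and 1 fell, CNTN1. CNTN1, an adhesion protein described as a non-canonical Notch ligand, went from 21.2 ± 2.10 to 10.8 ± 1.78 CPM (SD, n = 3 each), a fall of 2.01-fold (adjusted p = 0.000146). Of 6 ligand endocytosis genes 2 fell and 0 rose, beside 15.9% lower and 15.9% higher over all tested genes. NEURL1B, a ubiquitin ligase that acts on Delta ligands, had 14.9, 19.7 and 18.1 CPM under SCR and 7.28, 10.8 and 8.18 CPM under KD and fell 1.96-fold (adjusted p = 0.000453). EPN2, an endocytic adaptor, fell 1.28-fold (adjusted p = 0.00626). MIB1, the main ubiquitin ligase for these ligands, did not pass (log2 change -0.22 ± 0.12, adjusted p = 0.178).

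Receptor cleavage and glycosylation genes gave small changes. Of 8 tested cleavage genes 1 rose and 2 fell, all by less than 1.3-fold, beside 15.9% higher and 15.9% lower over all tested genes. PSEN2, a catalytic subunit of gamma-secretase, went from 20.5 ± 3.03 to 26.5 ± 2.33 CPM (adjusted p = 0.0281). NCSTN, which holds the substrate in that complex, fell 1.19-fold (adjusted p = 0.0301). Of 4 tested glycosylation genes POGLUT1, which adds glucose to the receptor, rose 1.26-fold (adjusted p = 0.0461) and RFNG, a Fringe enzyme that alters ligand choice, fell 1.33-fold (adjusted p = 0.00991). LFNG, another Fringe enzyme, was low at 0.538 to 0.835 CPM. The calls of PSEN2 and NCSTN were lost without control 2 (adjusted p = 0.146 and 0.0634) or control 3 (0.0994 and 0.119) and without knockdown library 1 (0.0936 and 0.129). PSEN2 also lost its call without knockdown library 3 (0.0694) and with upper-quartile scaling (0.0544). That of POGLUT1 was lost in 10 of 16 alternatives. It held without control 1 and was lost without each of the other 5 libraries (adjusted p = 0.0589 to 0.1855). It was also lost with DESeq2 (0.0981), upper-quartile scaling (0.0895) and the filter of 1 CPM in 3 libraries (0.0519). The GC correction (0.05915) and the gene-span correction (0.0630) lost it too. The call of RFNG was lost without control 3 (0.0549).

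Nuclear partners mostly did not pass the test. Of 9 activators 1 rose, 1 fell and 7 did not pass. RBPJ, the DNA-binding partner of every Notch receptor, was at 106.8, 106.2 and 117.6 CPM under SCR and 113.8, 102.5 and 124.3 CPM under KD (log2 change 0.04 ± 0.09, adjusted p = 0.751). MAML3, a Mastermind coactivator, fell 1.65-fold from 14.3 ± 2.13 to 8.49 ± 1.26 CPM (adjusted p = 0.00215). With a gene-span correction its log2 change was -0.42 in place of -0.72, still called. Its relatives MAML1 and MAML2 did not pass (adjusted p = 0.270 and 0.177). KAT2A, an acetyltransferase of the activator complex, rose 1.26-fold (adjusted p = 0.00815, and 0.0686 without control 2). Of 13 repressors 2 rose and 1 fell. HDAC1, a histone deacetylase of RBPJ corepressor complexes, went from 59.5 ± 4.94 to 81.1 ± 2.12 CPM (adjusted p = 0.00182). TLE4, a Groucho corepressor that HES proteins recruit, rose 1.52-fold (adjusted p = 0.0103, and 0.0501 without control 3).

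Inhibitors of the receptor also moved apart. Of 10 tested genes of receptor turnover and inhibition 1 rose and 3 fell, beside 15.9% higher and 15.9% lower over all tested genes. NUMB, an endocytic adaptor that restrains Notch, went from 51.3 ± 0.982 to 41.5 ± 2.76 CPM (adjusted p = 0.0134), and its paralog NUMBL from 35.8 ± 3.68 to 48.5 ± 2.58 CPM (adjusted p = 0.00337). The fall of NUMB was lost without control 2 (log2 change -0.32, adjusted p = 0.0521) and with a gene-span correction (-0.15, adjusted p = 0.143). NEDD4 and DTX3, ubiquitin ligases, fell 1.28- and 1.27-fold (adjusted p = 0.0288 and 0.0136). The call of NEDD4 was lost without control 2 (log2 change -0.24), knockdown library 2 (-0.28) or knockdown library 3 (-0.35) and with a gene-span correction (-0.22), and that of DTX3 without control 2 (-0.30), knockdown library 1 (-0.32) or knockdown library 3 (-0.33). Of 3 tested other targets HEYL, a relative of HEY1, fell 1.36-fold from 11.7 ± 0.487 to 8.91 ± 1.78 CPM (adjusted p = 0.027, and 0.0714 to 0.120 without each of controls 2 and 3 and knockdown libraries 2 and 3, and 0.072 with DESeq2). NRARP, a feedback inhibitor switched on by Notch, was at 7.79, 6.75 and 5.98 CPM under SCR and 7.94, 8.14 and 8.13 CPM under KD (log2 change 0.24 ± 0.14, adjusted p = 0.210). HES1 and NRARP both had all knockdown libraries above the controls, as in 22.9% of tested genes, and neither passed the test. The other tested targets differed: HEY1 and HEY2 overlapped between the groups, and HES6 and HEYL had all knockdown libraries below all controls.

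Among proneural factors, which HES proteins repress, 4 of 8 were tested and 1 fell, beside 15.9% lower over all tested genes. NEUROD1 was at 32.4, 33.65 and 36.9 CPM under SCR and 18.3, 16.7 and 14.7 CPM under KD (log2 change -1.07 ± 0.11, adjusted p = 3.26e-05). NEUROG1 overlapped between the groups (adjusted p = 0.710), and ATOH1 had 0 counts in every library. NEUROD1 and HES6 thus fell together in these libraries.

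**Figure D4:**
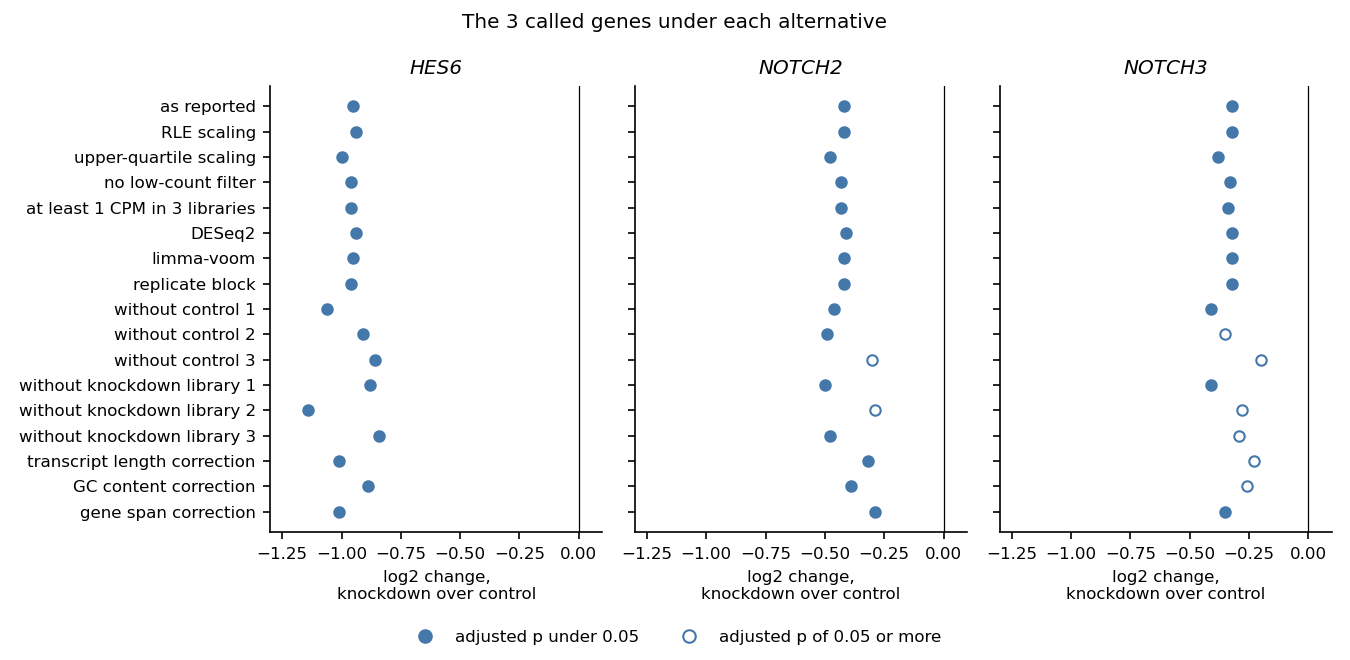
Log2 change (knockdown over control) of HES6, NOTCH2 and NOTCH3 as reported and under 16 alternatives, with filled points for an adjusted p under 0.05. HES6 is filled throughout, NOTCH2 is open in 2 settings and NOTCH3 in 6.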

How the data were processed

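PolyA+ RNA-seq of 6 libraries of D283 Med cells was used, 3 controls and 3 knockdown libraries. Per the submitters' processing notes, the authors trimmed reads with Trim Galore 0.6.4, aligned them with STAR 2.7.9a and counted them with RSEM on GRCh38.p13. The deposited values are read as RSEM expected counts per gene, rounded before deposit. Not given in the sources used here: gene annotation, RSEM version, strand setting.

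Joining 44 pseudoautosomal Y copies to the X genes gave 60664 genes. Of these, 60463 had a symbol, and GENCODE 29 gave coordinates and exon lengths for 58396. The groups were compared with edgeR 4.0.16 in R 4.3.3 (filterByExpr, TMM scaling, quasi-likelihood F test, Benjamini-Hochberg adjustment over 14673 genes, threshold 0.05). The test was tested on simulated counts. Standard errors are approximate, from the log2 change and the square root of its F. CPM use TMM-scaled library sizes. DESeq2 1.42.0, limma 3.58.1 (voom), other scalings and filters, a replicate block and leaving out each library were alternatives. Corrections for transcript length, GC content and gene span were added after seeing the data. The genes and lists were chosen with earlier results of these data known. All 10 genes were named, with up to 4 called genes per list by smallest adjusted p (some genes that enter the counts are not reported here by name), and the 3 genes most correlated with the member of smallest adjusted p. Figures were drawn with matplotlib 3.10.9.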

Additional observations from a re-analysis of the deposited data

How the results depend on the processing

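Of the 3 calls among the 10 genes, 1 to 3 were kept on leaving out each library (1 without control 3 or knockdown library 2), and 1, HES6, at an adjusted p under 0.01. The other scalings, filters and tools kept all 3, and the transcript length and GC corrections 2. Over all genes 4657 calls became 2704 to 5114 on leaving out a library (2704 without control 2, 2891 without control 3) and 2459 at an adjusted p under 0.01. With upper-quartile scaling they split into 1773 higher and 2803 lower, in place of 2328 and 2329. Among other pathway genes the count of rises, 7 as reported, was 4 with upper-quartile scaling, 3 at the stricter threshold and 3 to 7 on leaving out a library (3 without control 2 or 3, 4 without knockdown library 1 or 3). The count of falls, 12 as reported, was 5 at the stricter threshold and 6 to 13 on leaving out a library (6 without control 2, 7 without control 3). The cause was not tested.

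Signs turned only in genes near 0. NOTCH1 was at -0.03 with upper-quartile scaling and -0.11 to 0.15 on leaving out a library. HEY1 was at -0.06 with upper-quartile scaling, -0.01 with no filter and with 1 CPM in 3 libraries, -0.03 with a transcript length and -0.05 with a gene span correction, and -0.03 to 0.05 on leaving out a library. The replicate block gave 4742 calls over all genes and 3 among the 10. Deviations of same-numbered libraries correlated at 0.03, 0.10 and -0.03, and not every library correlated best with its own number, so the numbers were not taken as pairs. Of the genes named, VIM lost its call under the block (adjusted p = 0.0562). Depth limits DLL1 and HES5, and all low genes in knockdown library 1.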
